A study of Mus musculus with 8 samples.

Results

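Transcripts of 5 immune genes, Mzb1, Gsdmd, H2-Q7, H2-M2 and Il2, were followed in the parotid gland, a large salivary gland, of diabetic and control mice. They were taken by name from 46 genes whose probes carry a gene name through a RefSeq accession, each probe being printed as 10 spots on the array, and all 5 had a probe. The arrays held 60823 non-control probes, of which 54638 were tested. One group was made of db/db mice, in which loss of leptin receptor function leads to obesity and diabetes, weighing 40 to 55 g. The other was made of db/m mice of the same age and source, weighing 25 to 30 g. The animals were male and 16 weeks old, and each group had 4 one-colour arrays of whole gland RNA. The 5 genes were chosen by name from earlier results on the difference between these groups, so that difference is described without a test. Whether they varied together from array to array within a group was tested, but for H2-Q7 and H2-M2 this was already known in db/db.

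Plasma cells in salivary glands make antibody that is carried into saliva. Mzb1 encodes a protein of the endoplasmic reticulum that helps B cells and plasma cells fold and secrete immunoglobulin. Gsdmd encodes gasdermin D, which inflammatory caspases cut so that its amino-terminal part forms pores in the cell membrane, a form of cell death called pyroptosis. H2-Q7 and H2-M2 encode non-classical class I molecules of the mouse major histocompatibility complex, the family whose classical members present peptides to T cells. H2-Q7 belongs to the genes of the Qa-2 antigen, and its family holds near-identical copies that a probe may not separate. Il2 encodes interleukin 2, a growth factor that activated T cells release.

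The upstream regions of H2-Q7 and H2-M2 are shown because the array values of these genes moved together, as described further on. They come from RefSeq (GRCm38.p6), both on chromosome 17, at chr17:35438905-35439139 on the plus strand for H2-Q7 and at chr17:37483570-37483804 on the minus strand for H2-M2. Each is printed 5′ to 3′ from 250 to 16 bases before the transcript start, and capitals mark the longest run of letters that both regions hold.
H2-Q7: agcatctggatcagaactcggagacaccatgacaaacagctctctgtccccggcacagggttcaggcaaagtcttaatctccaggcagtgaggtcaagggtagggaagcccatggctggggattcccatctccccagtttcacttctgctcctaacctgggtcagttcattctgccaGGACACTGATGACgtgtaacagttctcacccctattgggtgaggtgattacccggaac
H2-M2: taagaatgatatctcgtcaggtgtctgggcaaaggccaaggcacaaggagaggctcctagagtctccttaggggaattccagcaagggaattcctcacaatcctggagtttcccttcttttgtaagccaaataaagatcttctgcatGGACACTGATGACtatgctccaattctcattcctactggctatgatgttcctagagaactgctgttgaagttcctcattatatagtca

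The shared run, GGACACTGATGAC, was 13 bases long and lay 73 to 61 bases before the start of H2-Q7 and 103 to 91 bases before that of H2-M2. On either strand it occurred in 5 of 32851 upstream regions of the same length (0.0152%), and all 5 belonged to class I genes: H2-D1, H2-M2, H2-Q4, H2-Q6 and H2-Q7. The run was picked because H2-Q7 and H2-M2 share it, so the matches in these genes were fixed in advance. Its share is therefore not comparable with the motif shares that follow, and nothing about regulation is read from it. Motifs were searched on both strands. The core of the cyclic AMP response element, TGACGT, was found in H2-Q7, where it overlapped the end of the shared run, and had no match in the H2-M2 window. It occurred in 5.87% of all regions. A CCAAT box, the letters CCAAT, was present in both genes and in 32.6% of all regions. A match to the NF-kB consensus was present in both and in 3.67% of all regions. These matches describe letters only, and no binding was measured. Among the 5 genes, 3 had an entry in the promoter table.

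The p-values below measure the spread between these samples, since it is not stated for every array that it came from an animal of its own. In whole glands, fewer cells of a type and less RNA per cell cannot be told apart. The 75th percentile of the processed signal lay between 317.4 and 378.9 per array, and no non-control spot was saturated. Precision is limited by having 4 arrays in a group. A position code in the header of each array was read as slide row and slide column. That all arrays sat on 1 slide was not checked. Each group filled 1 such row, so slide row and group cannot be told apart. Of 121 entries in lists of immune, gland and other cell type markers and of the pyroptosis and antigen presentation pathways, 7 had a named probe. Those were the 5 genes, Mbp of the Schwann cell list and Cav2 of the endothelium list. None of the 8 listed acinar markers had one, so the tissue label was not checked here. Mbp differed by 0.23 ± 0.12 (SE, n = 4 each, limma adjusted p = 0.203) and Cav2 by 0.74 ± 0.11 (adjusted p = 0.00131). The part of either cell type in the results was not tested.

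Levels are log2 of the background-corrected intensity minus the 75th percentile of the array, so 0 means as bright as that percentile. Mzb1 stood at 1.18, 1.00, 0.65 and 1.43 in db/db replicates 1, 2, 5 and 8. In db/m replicates 2, 5, 7 and 8 it stood at 0.20, 0.01, -0.16 and -0.12. All db/db arrays lay above all db/m arrays, and the gap between the groups was 0.46. The db/db arrays were more spread, with an SD of 0.33 against 0.16 (n = 4 each), and db/db replicate 5 was the lowest of them. The log2 difference was 1.09 ± 0.16 (SE), a 2.13-fold higher level of this plasma cell transcript in db/db.

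Gsdmd stood at 0.22, -0.30, 0.13 and -0.14 in db/db replicates 1, 2, 5 and 8, and at -0.88, -0.87, -1.08 and -1.49 in db/m replicates 2, 5, 7 and 8. The groups did not overlap, with a gap of 0.57, and db/m replicate 8 was the lowest array. The difference was 1.06 ± 0.17 (SE), or 2.08-fold. Within db/db the order of the arrays was not that of Mzb1: Mzb1 was lowest in replicate 5 and Gsdmd in replicate 2.

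H2-Q7 stood at 6.08, 5.62, 6.12 and 5.59 in db/db replicates 1, 2, 5 and 8, and at 5.46, 5.20, 5.24 and 4.90 in db/m replicates 2, 5, 7 and 8. The difference was 0.65 ± 0.16 (SE), and the gap between the groups was 0.13. H2-M2 stood at 4.34, 3.90, 4.43 and 3.90 in db/db and at 3.89, 3.58, 3.67 and 3.30 in db/m, in the same replicate order. Its difference was 0.53 ± 0.17 (SE). For H2-M2 the groups nearly met: the lowest db/db array lay 0.02 above db/m replicate 2. In both class I genes db/db replicates 1 and 5 were high and db/m replicate 8 was low.

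**Figure D1:**
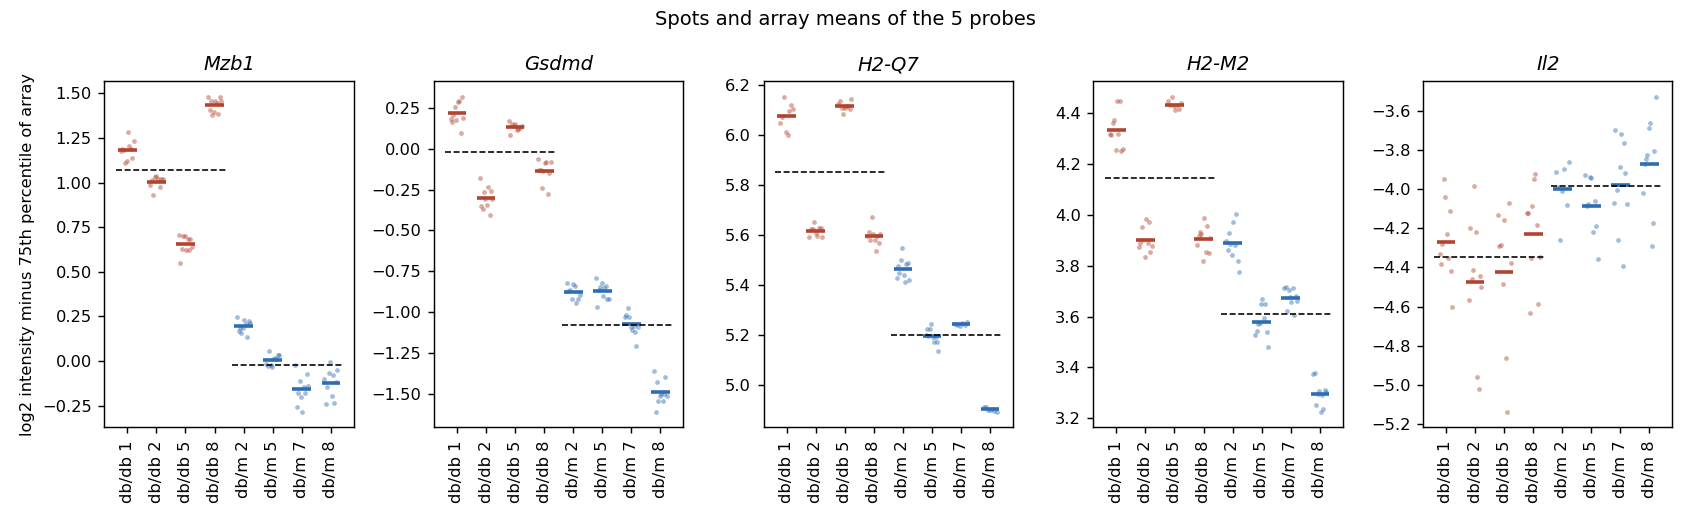
Log2 intensity minus the 75th percentile of the array, for each of the 5 probes on the 8 arrays; small points are spots that were not marked as outliers, thick bars are array means and dashed lines are group means. Spots of Mzb1, Gsdmd, H2-Q7 and H2-M2 cluster tightly around each array's mean, while spots of Il2 spread with an SD of 0.14 to 0.36 on each array.

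Il2, the T cell growth factor, was the member that was lower in db/db. It stood at -4.27, -4.48, -4.42 and -4.23 in db/db replicates 1, 2, 5 and 8, and at -4.00, -4.09, -3.98 and -3.87 in db/m replicates 2, 5, 7 and 8. The groups did not overlap, with a gap of 0.14 and a difference of -0.36 ± 0.09 (SE). Only 8.71% of tested probes were dimmer. Its raw signal was between 38.7 and 44.2, beside a local background of 16.9 to 21.0. Of its 10 spots, 8 were well above background on db/db replicate 2, 9 on db/m replicate 5 and all on each of the other arrays.

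The structural negative control, 3xSLv1, had median processed signals from 1.78 to 2.60, and Il2 had 16.5 to 23.5. Probes named MM9NEGATIVE had 7.02 to 13.4, though 18 to 26 of their 45 spots were themselves well above background. On the same log2 scale the array medians of the MM9NEGATIVE spots had a mean difference of -0.40, and those of 3xSLv1 of -0.31. The SD over arrays for MM9NEGATIVE was 0.38 (db/db) and 0.22 (db/m), and for 3xSLv1 0.23 and 0.18. Unlike for Il2, the groups overlapped in both control sets. For MM9NEGATIVE, db/db replicate 1 (-4.88) lay above db/m replicate 2 (-5.12). For 3xSLv1, db/db replicate 2 (-7.25) lay above db/m replicates 7 (-7.29) and 8 (-7.34). Negative control spots were thus lower in db/db on average only. Tested probes as dim as Il2, 3095 with a mean level within 0.25 of its own, had a median difference of 0.13, in the other direction. Of those, 9.21% had a difference at or below that of Il2. To be tested, these probes had to be well above background on enough arrays, which the db/db arrays alone could supply. Spots well above background made up 89.4 to 92.3% per array in db/db and 85.3 to 89.3% in db/m. How far this selection moved the median of the dim probes was not tested, so nothing about Il2 is read from it. Without the subtraction of the percentile, which was 0.15 higher in db/db, the Il2 difference was -0.22. It was -0.19 with normexp background correction, -0.25 without background correction and -0.51 with quantile normalization. The part of background in the Il2 difference was not tested.

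**Figure D2:**
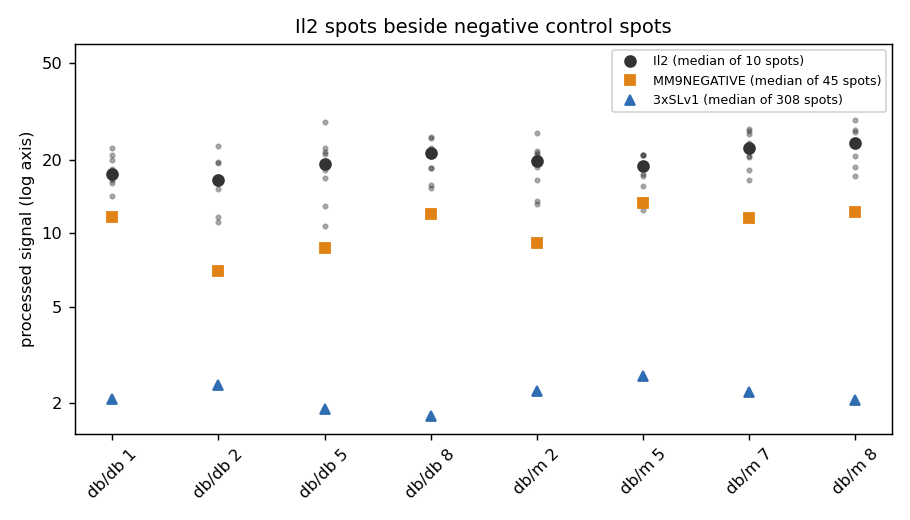
Processed signal (log axis) on the 8 arrays: small grey points are the 10 Il2 spots, large circles their median, squares the median of 45 MM9NEGATIVE spots and triangles the median of 308 spots of 3xSLv1. Il2 medians run from 16.5 to 23.5, above those of both control sets on every array. Single control spots are not drawn: 64.4 to 66.7% of MM9NEGATIVE spots lay below the Il2 median of their array, and the others did not.

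In the fit across all tested probes all 5 genes were called at a limma adjusted p below 0.05, beside 27.8% of all tested probes. The 4 higher ones stand beside 15.9% called higher and Il2 beside 11.9% called lower. All 5 had groups without overlap, beside 30.7% of all tested probes, 16.9% with db/db higher and 13.8% with db/db lower. Since these values chose the genes, nothing is read from these counts. Without db/db replicate 5 the calls of H2-Q7, H2-M2 and Il2 were lost, and that of H2-M2 was also lost without db/db replicate 1 or db/m replicate 5, 7 or 8. The other 39 tested genes with a named probe had a median difference of 0.20. Of them 19 were called, and among these db/db was the higher group for 14 and the lower for 5. The median over the 5 genes was 0.65 and over all tested probes 0.03. By difference, Mzb1 ranked 2 and Gsdmd 3 of the 44 tested named probes, after Hyal3 (1.14), a hyaluronidase family gene. As the 5 genes were chosen from this difference, nothing is read from their ranks or their median either.

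**Figure D3:**
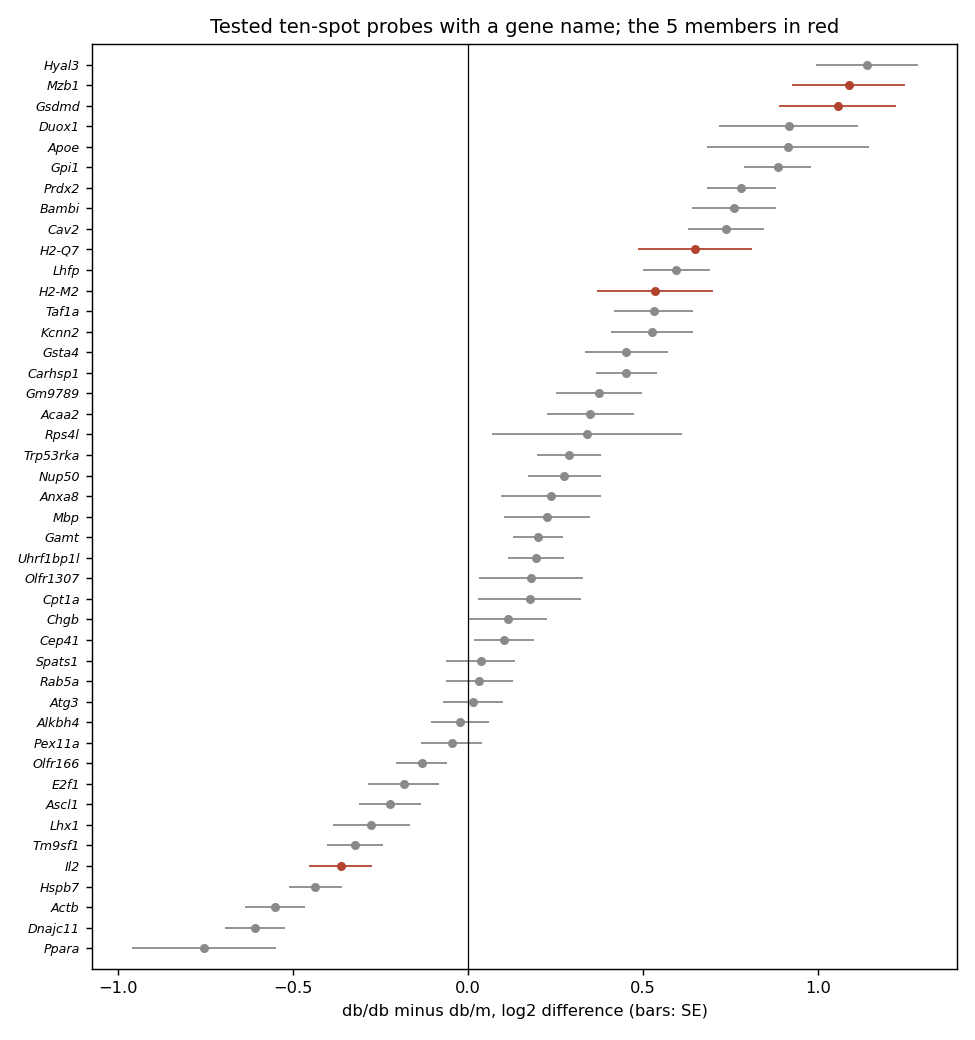
Log2 difference db/db minus db/m with its SE for the 44 tested probes with a gene name, sorted; the 5 immune genes are in red. Mzb1 (1.09) and Gsdmd (1.06) lie near the top, H2-Q7 (0.65) and H2-M2 (0.53) in the upper part and Il2 (-0.36) among the lowest.

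The repeated spots give a measure of technical error that does not involve the groups. For Mzb1 the SD over spots of an array was between 0.03 and 0.08, and an array mean over its spots should vary by 0.02 from spot error alone. The SD between arrays within groups was 0.26, or 15.3 times that error. The ratio was 13.7 for Gsdmd, 25.4 for H2-Q7 and 15.4 for H2-M2. For these 4 genes the arrays of a group thus differed far beyond the error of the spots. For Il2 the spot SD was 0.14 to 0.36, spot error alone gives 0.08, and the SD between arrays was 0.10, or 1.32 times as much. Array-to-array differences in Il2 were little larger than spot error. The spots of one array share its RNA and labelling, so this compares spots with arrays and not animals with animals.

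The deviations of each array from its group mean showed which genes varied together within groups. H2-Q7 deviated by 0.23, -0.23, 0.27 and -0.26 in db/db replicates 1, 2, 5 and 8, and by 0.26, -0.01, 0.04 and -0.30 in db/m replicates 2, 5, 7 and 8. H2-M2 deviated by 0.19, -0.24, 0.29 and -0.24 in db/db, and by 0.28, -0.03, 0.07 and -0.31 in db/m. Both class I genes kept nearly 1 distance on every array. The log2 difference between the 2 probes had an SD of 0.02 within groups, against 0.26 for either gene, and spot error alone gives 0.02. Between the groups that difference was 0.11 larger in db/db.

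Gsdmd deviated by 0.24, -0.28, 0.15 and -0.11 in db/db and by 0.20, 0.21, 0.00 and -0.41 in db/m. Its signs matched those of H2-Q7 on 7 of 8 arrays, the exception being db/m replicate 5. On db/m replicate 7 the Gsdmd deviation (0.004) was within its spot error (SE 0.02). So was the H2-Q7 deviation on db/m replicate 5 (-0.006, SE 0.01), and those signs are not firm. Deviations also cancel out within a group, so the matches are not independent. Mzb1 deviated by 0.11, -0.06, -0.41 and 0.37 in db/db, so the array that was highest for the class I genes, replicate 5, was lowest for Mzb1. In db/m it deviated by 0.22, 0.03, -0.14 and -0.10.

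**Figure D4:**
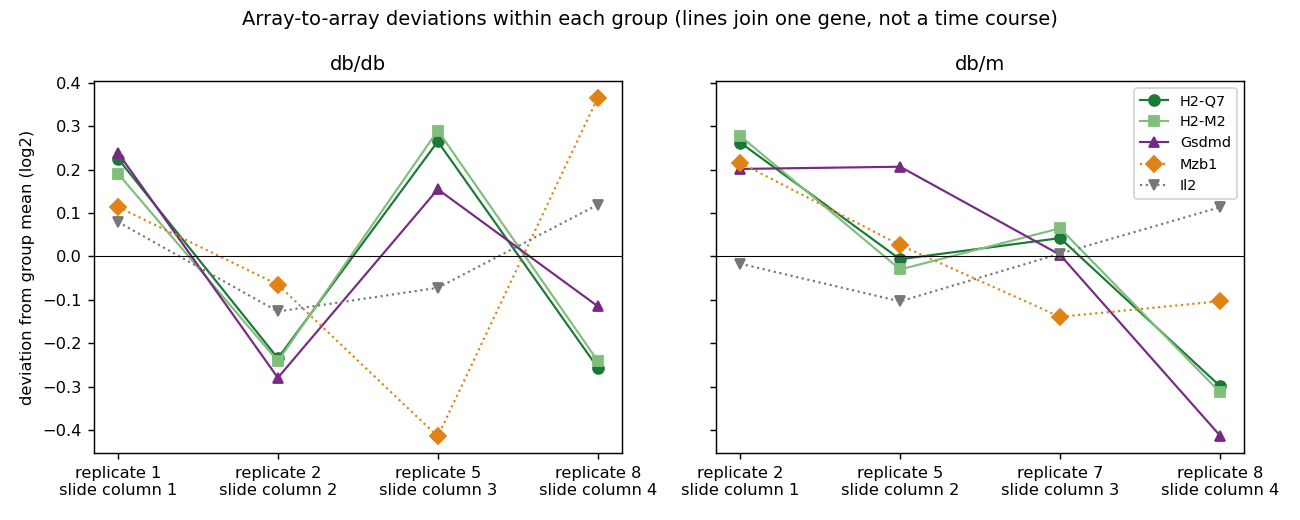
Deviation of each array from its group mean (log2) for the 5 genes, db/db on the left and db/m on the right, labelled by replicate and slide column; lines only join the points of a gene. H2-Q7 and H2-M2 lie nearly on top of each other, Gsdmd follows them on most arrays, and Mzb1 falls to -0.41 in db/db replicate 5 where they rise.

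Correlations of these deviations were computed over the 8 arrays for the 10 pairs and tested by exact permutation of arrays within groups (two-sided, 576 arrangements), with Benjamini-Hochberg adjustment over the 10 pairs. A correlation within 1 group of 4 arrays was not computed. For H2-Q7 and H2-M2 Pearson's r was 0.996 (exact permutation p = 0.00347, adjusted p = 0.0347). Spearman's rho was 0.976 (exact p = 0.00521, adjusted p = 0.0521). Without the 2 arrays farthest from the median it was r = 0.993. That these genes run in parallel in db/db was known when the test was set, so the p adds no separate support. Leaving out any 1 of the 8 arrays ended the call: r then ran from 0.994 to 0.998, with exact permutation adjusted p from 0.0694 to 0.139. With 7 arrays the smallest unadjusted p is 0.00694, which for a single pair at it gives an adjusted p of 0.0694.

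Gsdmd and H2-Q7 had r = 0.882 (exact permutation p = 0.0347, adjusted p = 0.133) and rho = 0.690 (exact p = 0.0990, adjusted p = 0.330). Gsdmd and H2-M2 had r = 0.866 (exact permutation p = 0.0399, adjusted p = 0.133) and rho = 0.714 (exact p = 0.0903, adjusted p = 0.330). Neither passed the adjustment. Without the 2 farthest arrays r was 0.803 and 0.730, and leaving out each array in turn gave 0.85 to 0.95 and 0.81 to 0.95. As H2-Q7 and H2-M2 are nearly 1 measurement here, the pairs with Gsdmd are not separate results.

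The other 7 pairs had r from -0.251 (Gsdmd and Il2) to 0.443 (Mzb1 and Il2), with exact permutation p from 0.391 to 0.882 and adjusted p from 0.775 to 0.882. Their rho ran from -0.357 to 0.333. Exact permutation p for rho was 0.438 to 0.866, and adjusted p 0.783 to 0.866. Mzb1 had r = 0.0734 with Gsdmd, -0.202 with H2-Q7 and -0.216 with H2-M2. Leaving out the 2 arrays farthest for Mzb1, db/db replicates 5 and 8, gave 0.722, 0.779 and 0.758, so the low values with these genes rest on those arrays. The 2 db/db arrays that remain then have equal and opposite deviations by construction, so the higher values say little about db/db. For Mzb1 and Il2 db/db replicates 5 and 8 were also left out, and r went to -0.0069. Gsdmd and Il2 gave -0.53 without db/db replicate 2 and db/m replicate 8. H2-Q7 and Il2 gave 0.61 without replicate 8 of each group, and H2-M2 and Il2 gave 0.41 without db/db replicate 5 and db/m replicate 8. Over the 10 pairs the median r was -0.0645, and over all 1035 pairs of named 10-spot probes it was 0.112. Of the 10 correlations 5 were above 0.

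**Figure D5:**
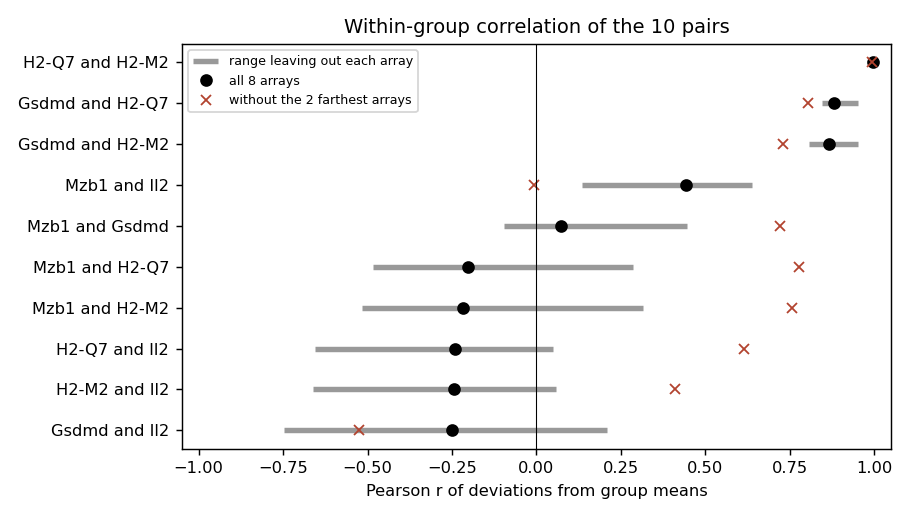
Pearson r of the deviations from group means for the 10 pairs; black points use all 8 arrays, grey bars span the values with each array left out in turn, and red crosses leave out the 2 arrays farthest from the median. The pairs among H2-Q7, H2-M2 and Gsdmd stay above 0.7, while the pairs with Mzb1 or Il2 move widely.

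Slide column was the same for 1 array of each group. In column 1 H2-Q7 deviated by 0.23 and 0.26 and in column 2 by -0.23 and -0.01. In column 3 it deviated by 0.27 and 0.04 and in column 4 by -0.26 and -0.30. The signs were equal in every column, but the -0.01 was within its spot error (SE 0.01). Other genes differed in sign: Gsdmd deviated by -0.28 and 0.21 in column 2, and Mzb1 by 0.37 and -0.10 in column 4. Over all tested probes, the deviations of same-column arrays correlated at 0.06, -0.02, 0.08 and -0.17 in columns 1 to 4. The median local background fell with the column, from 21 to 17 in the db/db row and from 20 to 17 in the db/m row. With the column mean removed as well, a choice made after seeing the data, r was 0.983 for H2-Q7 and H2-M2, 0.814 for Gsdmd and H2-Q7 and 0.798 for Gsdmd and H2-M2. For Mzb1 it was 0.418 with Gsdmd, -0.094 with H2-Q7, -0.00012 with H2-M2 and 0.235 with Il2. For Il2 it was 0.063 with Gsdmd, -0.378 with H2-Q7 and -0.497 with H2-M2, so these 7 pairs moved more than the 3 others. A column holds 1 array of each group, too few for a value of its own. Once group and column means are removed, the arrays of a column have equal and opposite deviations by construction. These r values thus rest on 1 free value per column at most, and how far the pairs moved says little.

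Likeness to other probes was compared as a description. Of 54589 other tested probes, 2 followed H2-Q7 as closely as H2-M2 did or closer, H2-M2 being 1 of them, and 264 (0.484%) followed it at least as closely as Gsdmd. Only 1.43% of tested probes had r of 0.8 or more with H2-Q7, and the median was -0.02. Among the 45 other named probes, those nearest to H2-Q7 were H2-M2, Gsdmd and Carhsp1 (0.812), which encodes a calcium-regulated heat-stable protein. The same genes were nearest to H2-M2, with 0.826 for Carhsp1, and Carhsp1 followed them for Gsdmd (0.833). For Mzb1 they were Bambi (0.863), whose product dampens TGF-beta signalling, Alkbh4 (0.692) and the myelin gene Mbp (0.685). For Il2 they were Hyal3 (0.835), Dnajc11 (0.650) and the autophagy gene Atg3 (0.618). All were over 8 arrays, which share their labelling method and scaling and possibly a slide. The probe sequences were not used here, so whether the H2-Q7 and H2-M2 probes also bind other class I transcripts was not tested.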

How the data were processed

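The authors deposited, per the file headers, spot intensities from Agilent Feature Extraction 11.0.1.1 whose processed intensity includes a background correction; per the labels' protocols, rRNA-depleted RNA was labelled with Cy3 by random priming. Log2 of that intensity minus the array's 75th percentile over non-control spots was taken. Spots marked as outliers (18 to 55 per array) were left out and the spots of a probe averaged. Probes well above background on at least 4 of 8 arrays were tested with limma 3.58.1 in R 4.3.3 (db/db minus db/m, Benjamini-Hochberg over 54638 probes, threshold 0.05), after 132 control-like probes had been set aside. The fit and the permutation test were tested on simulated data. The files hold the median spot signal and not the mean, so normexp and uncorrected values used the median signal. The deposited log2 table has no row for these probes and was not used.

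Members and lists were chosen with earlier results of these data known. Named genes were the 5 members, for each the 3 named probes most like it within groups, and listed genes with a probe. The other genes that hold the shared upstream run were named after it was found. Python 3.11.15, numpy 2.4.6, scipy 1.17.1, pandas 2.3.3 and matplotlib 3.10.9 were used.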

Additional observations from a re-analysis of the deposited data

How the results depend on the processing

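The differences of Mzb1, Gsdmd, H2-Q7 and H2-M2 moved by less than the SD between arrays under every alternative run, and none of the 5 changed sign. Il2 differed by -0.51 with quantile normalization, -0.19 with normexp and -0.25 without background correction; the cause was not tested. With a replicate block the differences were 1.00 for Mzb1, 0.98 for Gsdmd, 0.59 for H2-Q7, 0.49 for H2-M2 and -0.39 for Il2, and the block called 2 of the 5 genes, 11 named probes and 8518 probes against 5, 24 and 15176. Numbers 2, 5 and 8 occur in both groups, and what they stand for is not stated. The deviations of same-numbered arrays correlated at -0.02, -0.13 and -0.17, and those of differently numbered arrays at -0.09 to 0.12. These values cannot show whether same-numbered arrays were paired. The block takes the other arrays out of the comparison. Over 20 alternatives Mzb1 and Gsdmd were called in 20, H2-Q7 in 18, Il2 in 17 and H2-M2 in 12. Leaving out each array gave 2 to 5 of the genes, 18 to 24 named probes and 10544 to 16164 probes, and the 2 came without db/db replicate 5. Of all calls 57.1% were higher in db/db, against 46.0% with normexp and 46.7% with median scaling.

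The median of the 10 correlations was 0.065 with quantile normalization, 0.15 with normexp, 0.088 without background correction and 0.15 with the slide column mean removed, and -0.16 to 0.32 leaving out each array. Leaving out any array, 0 of 10 pairs passed, against 1 with all arrays. With 7 arrays a single pair cannot pass, as its smallest adjusted p by exact permutation is 0.0694, so this count says nothing about stability. Gsdmd and Il2 turned to 0.046 (quantile), 0.23 (normexp), 0.081 (no background correction) and 0.063 (column removed), and H2-Q7 and Il2 to 0.0094 (quantile) and 0.011 (normexp). Leaving out each array, r ran from -0.10 to 0.45 for Mzb1 and Gsdmd, -0.48 to 0.29 for Mzb1 and H2-Q7, -0.52 to 0.32 for Mzb1 and H2-M2, -0.75 to 0.21 for Gsdmd and Il2, -0.65 to 0.050 for H2-Q7 and Il2, and -0.66 to 0.059 for H2-M2 and Il2. Mzb1 and Il2 ran from 0.14 to 0.64, with 0.73 under quantile normalization and 0.20 with the median of spots. On the weakest array 8 of 10 Il2 spots were well above background.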
